A study of Mus musculus with 6 samples.

Results

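The chromatin around 10 endothelial genes was examined in bulk ATAC-seq of the mouse embryonic face. The genes were Kdr, Flt1, Tek, Tie1, Cdh5, Pecam1, Emcn, Erg, Sox17 and Sox18. Regions were made by joining peaks of any library that shared at least 1 bp. A gene received each region whose strongest summit had that gene's protein-coding start site as its nearest, within 100 kb. This rule gave 338 regions to the 10 genes, of 245066 regions within 100 kb of any such start site and 382006 regions in all.

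ATAC-seq marks accessible DNA by the insertion of sequencing adapters with the Tn5 transposase. The tissue was dissected from wild-type embryos at stage E11.5, and the 6 libraries carried 3 labels with 2 libraries each, namely maxillary process, mandibular process and nose. Their cell type was given as mixed, and no treatment was named. Whether replicates are separate embryos is not stated, so p-values measure the spread between these libraries only, which may be technical. Each of the 4 jaw lists has a name abbreviated for the jaw process opposite to its sample label. Groups here follow the sample labels, so that the text speaks of libraries labelled maxillary or mandibular process.

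Endothelial cells line blood vessels and spread through the growing face as a plexus. Vascular endothelial growth factor acts through the receptors Kdr and Flt1, and angiopoietins act through Tek, with which Tie1 associates. Cdh5, Pecam1 and Emcn stand at the cell surface and junctions, and ETS factors such as Erg, together with the SOXF factors Sox17 and Sox18, control genes of this lineage. In bulk tissue, fewer cells of a type and less accessibility per cell cannot be told apart.

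Sequences are shown for the distal regions on which the results turn, as the plus strand of GRCm38 in a window of 201 bases centred on the strongest summit. The Erg and Flt1 regions passed the test between labels, the Emcn region upstream came nearest to it in another contrast, the intronic Emcn region held a composite forkhead and ETS string, and the Cdh5 and Sox17 regions had the highest ranks. Capitals mark GGAAG or its complement, the core of ETS sites, in the Cdh5, Sox17 and upstream Emcn windows. In the Flt1 window they mark the SOX string AACAAT, and in the intronic Emcn window the composite string AACAGGAA, each on either strand. The Erg window held none of these 3 strings.
Erg +5.61 kb, chr16:95518895-95519095: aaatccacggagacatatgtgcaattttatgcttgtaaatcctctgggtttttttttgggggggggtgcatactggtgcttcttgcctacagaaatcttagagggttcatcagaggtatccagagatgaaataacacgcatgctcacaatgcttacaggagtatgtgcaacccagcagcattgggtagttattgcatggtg
Flt1 +80.6 kb, chr5:147645288-147645488: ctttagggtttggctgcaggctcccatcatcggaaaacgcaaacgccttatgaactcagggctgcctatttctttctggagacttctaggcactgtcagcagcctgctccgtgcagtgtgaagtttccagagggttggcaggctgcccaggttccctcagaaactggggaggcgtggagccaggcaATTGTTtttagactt
Emcn -52.4 kb, chr3:137288542-137288742: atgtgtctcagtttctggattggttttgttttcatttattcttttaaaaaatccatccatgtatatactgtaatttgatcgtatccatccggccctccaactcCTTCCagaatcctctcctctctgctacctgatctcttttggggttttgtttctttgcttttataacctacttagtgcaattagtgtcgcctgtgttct
Emcn +23.2 kb, chr3:137364266-137364466: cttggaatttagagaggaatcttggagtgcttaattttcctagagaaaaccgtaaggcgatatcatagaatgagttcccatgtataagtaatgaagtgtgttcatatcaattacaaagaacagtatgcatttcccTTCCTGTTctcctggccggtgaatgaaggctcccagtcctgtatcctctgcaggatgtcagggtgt
Cdh5 -78.3 kb, chr8:104023190-104023390: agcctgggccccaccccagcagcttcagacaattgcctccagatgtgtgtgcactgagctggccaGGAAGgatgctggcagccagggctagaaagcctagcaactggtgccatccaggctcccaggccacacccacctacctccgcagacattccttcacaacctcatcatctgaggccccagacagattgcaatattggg
Sox17 -74.5 kb, chr1:4571748-4571948: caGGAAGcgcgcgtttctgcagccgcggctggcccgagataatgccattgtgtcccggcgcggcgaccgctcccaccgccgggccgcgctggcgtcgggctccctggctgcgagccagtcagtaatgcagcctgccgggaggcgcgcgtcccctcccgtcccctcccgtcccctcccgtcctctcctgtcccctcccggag

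Promoters are shown for 3 genes whose promoter peaks ranked differently, from RefSeq on GRCm38.p6, each 300 bases long and read along the gene, with 250 bases before the start site. Capitals mark GGAAG on either strand. This string stood in 72.4% of 20143 RefSeq promoters of coding genes.
Kdr promoter, minus strand, chr5:75978406-75978705: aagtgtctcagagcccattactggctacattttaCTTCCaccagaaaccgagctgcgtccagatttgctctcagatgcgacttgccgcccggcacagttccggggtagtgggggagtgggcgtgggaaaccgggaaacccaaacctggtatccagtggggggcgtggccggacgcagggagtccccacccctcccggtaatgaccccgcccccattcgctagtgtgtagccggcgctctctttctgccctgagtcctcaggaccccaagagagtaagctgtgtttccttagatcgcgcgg
Emcn promoter, plus strand, chr3:137340828-137341127: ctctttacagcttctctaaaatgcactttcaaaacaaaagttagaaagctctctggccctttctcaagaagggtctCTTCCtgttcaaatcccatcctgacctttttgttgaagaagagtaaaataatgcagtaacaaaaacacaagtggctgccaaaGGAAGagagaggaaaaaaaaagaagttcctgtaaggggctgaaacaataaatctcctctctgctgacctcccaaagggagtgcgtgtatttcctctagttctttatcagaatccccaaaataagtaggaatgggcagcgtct
Tek promoter, plus strand, chr4:94739039-94739338: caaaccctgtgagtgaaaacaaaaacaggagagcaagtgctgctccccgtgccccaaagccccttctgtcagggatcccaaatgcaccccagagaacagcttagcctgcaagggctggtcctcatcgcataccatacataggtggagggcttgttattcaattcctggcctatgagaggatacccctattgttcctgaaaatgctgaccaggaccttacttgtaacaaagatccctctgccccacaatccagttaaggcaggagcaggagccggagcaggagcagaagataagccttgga

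The ratio of observed to expected CpG dinucleotides was 0.689 in the Kdr promoter, 0.780 in that of Flt1 and 0.941 in that of Erg. It was 0.159 in the Emcn promoter, 0.149 in that of Tek and 0.289 in that of Tie1, with a median of 0.588 over all 20143 promoters. Only these 6 of the 10 genes had a promoter in the RefSeq set, and Cdh5, Pecam1, Sox17 and Sox18 had no ratio. Erg had 3 such promoters, and the ratio is for that nearest to its promoter region. Kdr, Flt1 and Erg also had the highest promoter ranks of the 10 genes, which is a description of few genes.

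Of the 338 regions, 60 lay nearest to Erg, 55 to Cdh5, 54 to Emcn, 43 to Tek, 42 to Flt1, 33 to Sox17, 29 to Kdr, 14 to Pecam1, 5 to Sox18 and 3 to Tie1. The median gene of the 10 had 37.5 regions, against 5 for all 21827 protein-coding genes. The stretch in which a gene's start sites were the nearest varied as well, with 285 kb for Erg, 34.9 kb for Tie1 and 11.6 kb for Sox18, and its part in these counts was not tested apart from the density. Per 100 kb of such territory the median was 24.0 regions for the 10 genes and 14.1 for all genes. Sox18 had the highest density, 43.0 per 100 kb, and Tie1 the lowest, 8.6 per 100 kb.

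**Figure D1:**
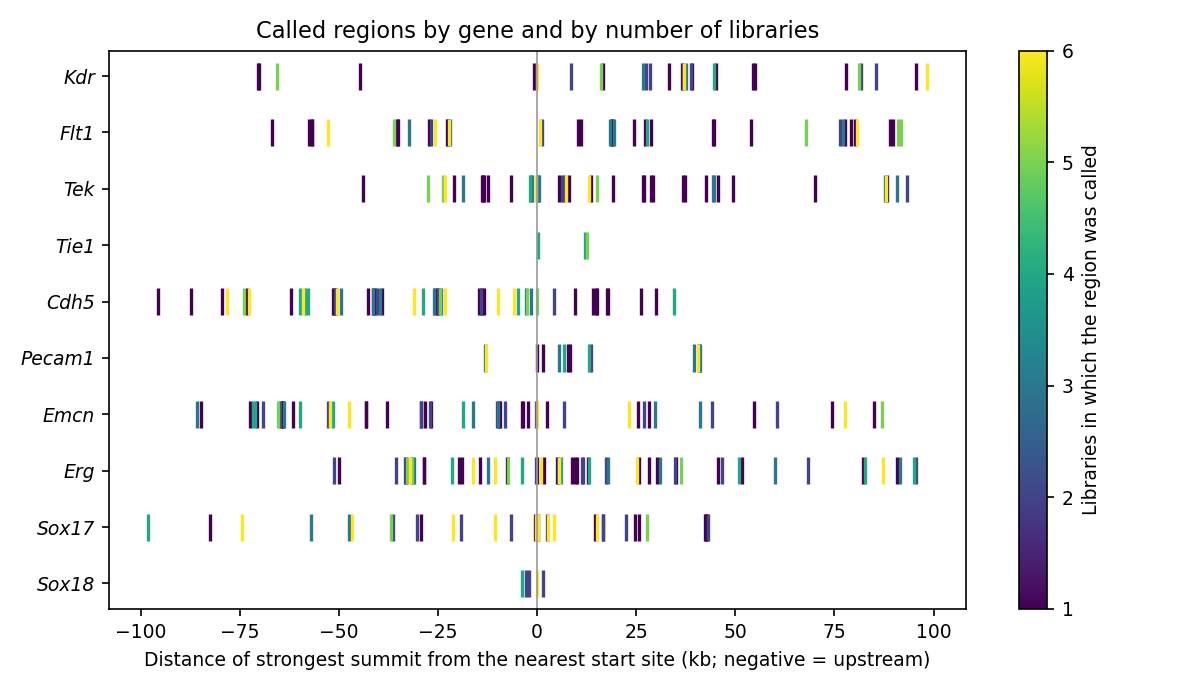
Position of the 338 regions of the 10 genes as distance of the strongest summit from the nearest start site (horizontal axis, kb, negative is upstream), by gene (vertical axis) and by the number of libraries that called the region (colour). Regions called in all 6 libraries lie both near the start sites and up to 98.3 kb from them.

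In position, 161 of the 338 regions (47.6%) lay in introns and 154 (45.6%) between genes, against 54.7% and 36.1% of all regions within 100 kb of a start site. Promoter regions, within 1 kb of a start site, numbered 19 (5.62%), against 12.9% of all. The median width was 177 bp for regions of endothelial genes and 175 bp for all regions, and the median GC content was 48.8% in both.

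Of the 338 regions, 45 (13.3%) were called in all 6 libraries, where the share was 21.7% over all 245066 regions within 100 kb of a start site. Another 147 (43.5%) were called in a single library, where the share over all regions was 41.6%. Regions of one gene share their neighbourhood and are not replicates, so these shares carry no test. Sox17 had 9 regions called in every library, Cdh5 8, Erg 7, Emcn, Flt1 and Tek 5 each, Kdr 3, Pecam1 2, Sox18 1 and Tie1 0.

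**Figure D2:**
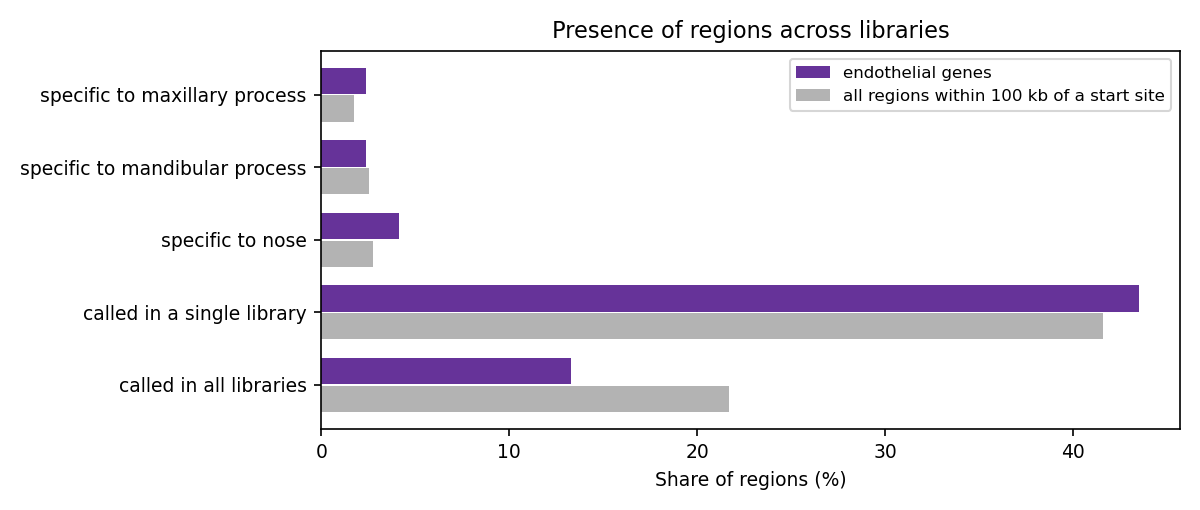
Share of regions (horizontal axis, %) specific to each label, called in a single library or called in all 6 libraries, for the 338 regions of endothelial genes (purple) and for all 245066 regions within 100 kb of a start site (grey). The widest gap is in regions called in all libraries, 13.3% against 21.7%.

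Promoter peaks of 7 of the 10 genes were called in every library, where the share over all 21827 protein-coding genes was 61.3%. Strength was compared by rank within each list, as a percentile of −log10 p on which 100 is the strongest peak. The median percentile of the 7 promoters was 66.9, against 95.5 for the 13386 genes whose promoters were called in all libraries. Ranks are given below in the order replicate 1, replicate 2 of each label.

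Among the receptors, the promoter of Kdr (chr5:75932827-75978458, minus strand), the main signalling receptor for vascular endothelial growth factor, had the highest ranks. Its percentiles were 95.1 and 97.1 in the libraries labelled maxillary process, 98.6 and 96.0 in those labelled mandibular process and 94.4 and 97.8 in those labelled nose. The labels overlapped. Flt1 (chr5:147561604-147726011, minus strand), which binds the same ligand and limits its action on Kdr, had percentiles of 78.2 and 82.0, 78.8 and 81.6, and 84.4 and 80.9 under the same labels, again with overlap. Tek (chr4:94739289-94874976, plus strand), the angiopoietin receptor, spread more widely, with 41.2 and 51.7 in maxillary process, 15.2 and 36.1 in mandibular process and 56.9 and 67.2 in nose. Both nose libraries ranked above the other 4, and both mandibular libraries below them. The order of ranks itself was not tested. The fold of the Tek promoter region called in all libraries, at -0.363 kb, was compared by limma as described further on and did not pass, with a log2 difference of -0.59 ± 0.187 (SE, adjusted p = 0.122) for mandibular process minus nose, and with adjusted p of 0.526 for maxillary minus mandibular process and 0.575 for maxillary process minus nose. Tie1 (chr4:118471191-118490061, minus strand), an orphan receptor that modulates Tek, had no promoter peak in either library labelled maxillary process. Its percentiles were 25.0 and 28.3 in mandibular process and 23.0 and 28.9 in nose. Of the maxillary lists, that of replicate 1 was the shortest of all 6 with 219779 lines and that of replicate 2 began at the highest −log10 q, 2.55, and their part in this absence was not tested.

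Among junction and surface genes, Cdh5 (chr8:104101625-104144511, plus strand), the cadherin of endothelial junctions, had a promoter peak in 5 libraries. Its percentiles were 30.5 and 21.7 in maxillary process, 35.4 and 22.0 in mandibular process and 21.9 in nose replicate 2, and no peak was listed in nose replicate 1. Pecam1 (chr11:106654217-106750628, minus strand), an adhesion molecule of endothelium and some blood cells, had a promoter peak only in maxillary process replicate 2, at percentile 47.1. A start site of the neighbouring gene Milr1 lies 0.598 kb from one of Pecam1, so a peak there could be given to the other gene. Emcn (chr3:137341067-137432185, plus strand), a sialomucin of venous and capillary endothelium, had percentiles of 61.1 and 52.2 in maxillary process, 8.16 and 28.3 in mandibular process and 33.7 and 47.5 in nose. Both maxillary libraries ranked above the other 4, an order that was not itself tested. The fold of the Emcn promoter region at -0.02 kb did not pass in limma, with log2 differences of 0.58 ± 0.199 (SE, adjusted p = 0.181) for maxillary minus mandibular process and 0.38 ± 0.199 (SE, adjusted p = 0.419) for maxillary process minus nose.

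Among transcription factors, Erg (chr16:95359169-95586593, minus strand), an ETS factor that maintains endothelial identity, had percentiles of 90.4 and 82.2 in maxillary process, 86.5 and 87.1 in mandibular process and 90.7 and 84.3 in nose. Sox18 (chr2:181669836-181671640, minus strand), a factor of vascular and lymphatic development, had 79.2 and 60.3, 80.1 and 63.2, and 62.6 and 56.2 under these labels. Sox17 (chr1:4490931-4497354, minus strand), which acts in arterial endothelium and in endoderm, had 72.1 and 50.0, 30.3 and 53.4, and 44.8 and 62.9. For Erg and Sox17 the labels overlapped. At Sox18 both mandibular libraries ranked above both nose libraries, and maxillary process overlapped each of these labels. That order was not tested. The fold of the Sox18 promoter region at -0.026 kb did not pass in limma for mandibular process minus nose (adjusted p = 0.887).

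**Figure D3:**
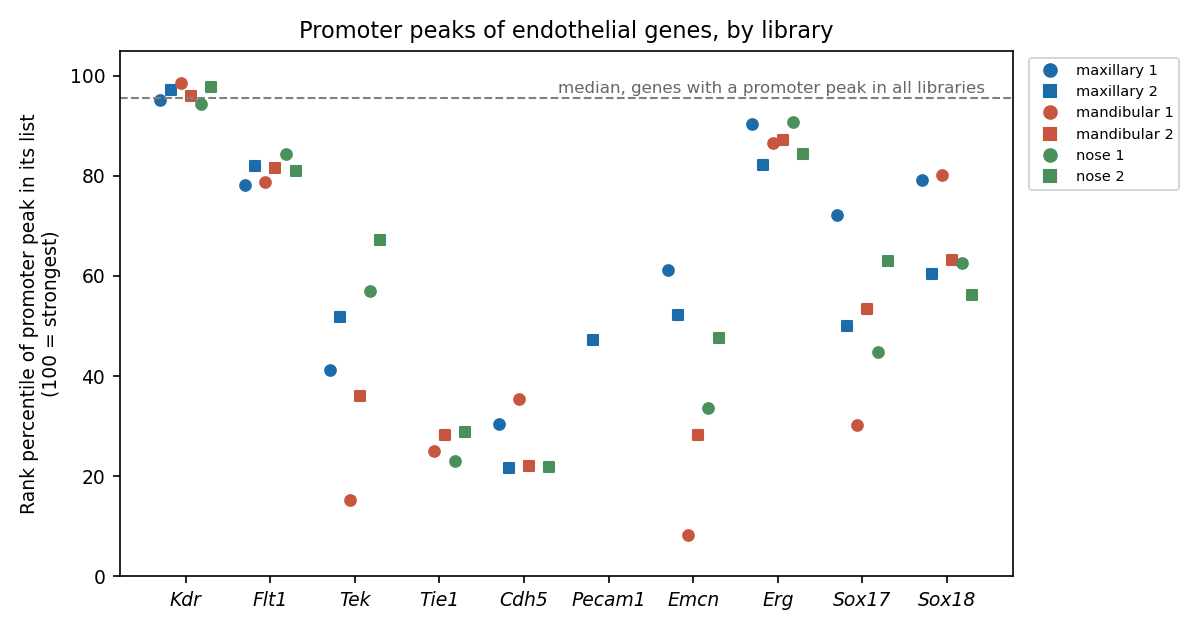
Rank percentile of the strongest promoter peak within its list (vertical axis, 100 is the strongest) for the 10 genes (horizontal axis) in each library. Circles are replicate 1, squares replicate 2, colours are labels, a missing point is a library without a promoter peak, and the dashed line is the median of 95.5 over genes with promoters called in all libraries. Kdr lies near that line and the other 9 genes below it.

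Away from promoters, 37 regions over 1 kb from a start site were called in all libraries, with a median percentile of 62.4, against 65.9 for all 35363 such regions within 100 kb of a start site. The highest ranks were at Sox17, -74.5 kb from the start site (mean percentile 98.2, range over libraries 97.2 to 99.0), and at Cdh5, -78.3 kb (mean 97.6, range 97.1 to 98.2). Both are intergenic and ranked above 97 in every library. The Sox17 region was 1147 bp wide and its window had a GC content of 74.1%. The medians for regions of endothelial genes were 177 bp and 48.8%. At Erg the strongest distal region lay at -16.1 kb with a mean percentile of 88.1, at Flt1 at -52.8 kb with 86.3, at Pecam1 at +40.5 kb in intron 14 with 79.1 and at Tek at +13.2 kb in intron 1 with 76.7. Emcn followed with 70.8 at -52.4 kb and Kdr with 34.9 at +98.3 kb. Tie1 and Sox18 had none. Tie1 had an intronic region 12.5 kb downstream in 5 libraries, all but maxillary process replicate 1.

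Regions were taken as specific to a label if both its libraries called them and the other 4 did not. Maxillary process had 8 such regions (2.37%, against 1.76% of all regions), mandibular process had 8 (2.37%, against 2.54%) and nose had 14 (4.14%, against 2.73%). Of the 14 nose regions, 7 lay at Emcn, 3 at Erg, 2 at Cdh5 and 2 at Sox17. In strength, 5 of the 30 had a mean percentile above 50 in their label, and the median was 23.3 in maxillary process, 33.1 in mandibular process and 24.8 in nose. The strongest was at Erg, 68.3 kb downstream in intron 4 (chr16:95390729-95391319), with percentiles of 87.7 and 92.9 in the libraries labelled maxillary process and no peak in the other 4. Specific to maxillary process were also Erg at -0.239 and -35.6 kb, Cdh5 at -40.3 kb, Emcn at -10.2 kb, Kdr at +8.41 kb, Sox18 at -2.82 kb and Tek at +93.3 kb. For mandibular process they were Emcn at +6.88 and +60.5 kb, Kdr at +28.4 and +85.4 kb, Cdh5 at -51.1 kb, Flt1 at +76.5 kb, Sox17 at -19.3 kb and Erg at +5.20 kb. For nose they were Emcn at -69.1, -52.8, -27.1, -8.03, -0.386, +26.9 and +44.2 kb, Erg at -33.3, +11.3 and +34.9 kb, Cdh5 at -25.1 and +4.34 kb, and Sox17 at -6.52 and +22.3 kb. Next to the Erg region at +5.61 kb lay the mandibular one at +5.20 kb, with percentiles of 57.6 and 69.0.

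Pairs of labels were then compared by regions that both libraries of one label called and that neither of the second label did. There were 18 in maxillary and not mandibular process (5.33%, against 3.26%) and 19 in mandibular and not maxillary process (5.62%, against 5%). For maxillary process and not nose there were 15 (4.44%, against 3.50%), and for nose and not maxillary process 23 (6.80%, against 5.15%). For mandibular process and not nose there were 21 (6.21%, against 4.75%), and for nose and not mandibular process 20 (5.92%, against 4.61%). All 6 shares were above their background, though that for mandibular and not maxillary process lay close to it (5.62%, against 5%). Regions called in all libraries cannot enter these sets. They made up 13.3% of endothelial regions, against 21.7% of all regions, so a larger part of the endothelial regions could enter. How far this raised the 6 shares was not tested. The 6 sets share regions, since a region specific to a label enters both of its contrasts. The shares were not tested.

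The libraries called 114 and 150 regions of endothelial genes in maxillary process, 138 and 155 in mandibular process and 147 and 168 in nose. Per 10000 regions called, this was 8.18 and 8.73 in maxillary process, 7.52 and 8.85 in mandibular process and 8.45 and 9.05 in nose, and the labels overlapped. The mean for maxillary process was 8.45 ± 0.388 (SD, n = 2) and for the other libraries 8.47 ± 0.681 (SD, n = 4), a difference of -0.0149. For mandibular process the mean was 8.18 ± 0.946 against 8.60 ± 0.373, a difference of -0.416, and for nose 8.75 ± 0.423 against 8.32 ± 0.610, a difference of 0.431. Exact permutation over the 15 choices of 2 of 6 libraries gave two-sided p of 1 (maxillary), 0.533 (mandibular) and 0.467 (nose), adjusted 1, 0.800 and 0.800 over the 3 labels. The smallest p this design allows is 0.0667.

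**Figure D4:**
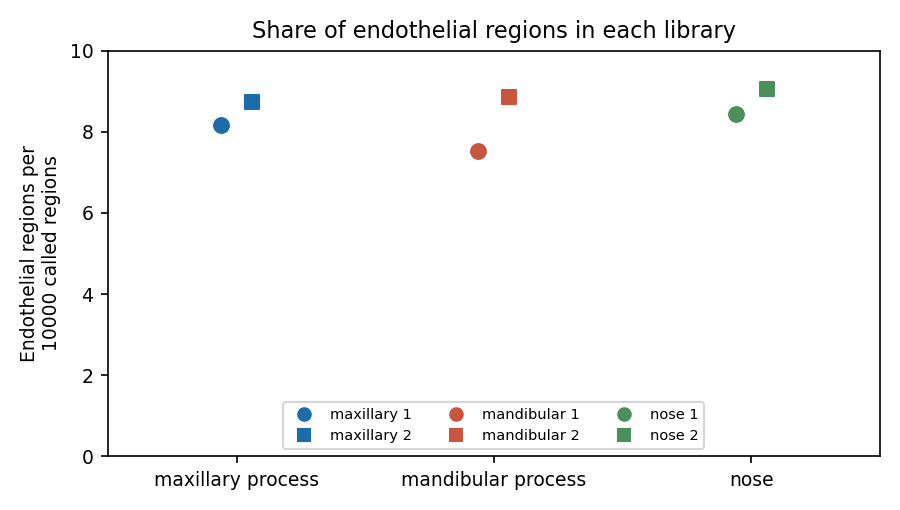
Regions of endothelial genes per 10000 called regions (vertical axis) in each library, by label (horizontal axis), circles replicate 1 and squares replicate 2. Values run between 7.52 and 9.05 and the labels overlap.

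The strength of regions called in every library was compared by limma on log2 of the highest fold of each library, quantile normalized, with Benjamini-Hochberg adjustment over 69940 regions. Of the 45 regions of endothelial genes, 0 passed an adjusted p of 0.05 for maxillary minus mandibular process (0.981% of all regions did), with 8 (17.8%) at an unadjusted p under 0.05, where 14.2% of all regions were. For maxillary process minus nose 0 passed (1.38% of all regions did), with 5 (11.1%) unadjusted, against 14.4% of all regions. For mandibular process minus nose 2 passed (2.48% of all regions did), with 8 (17.8%) unadjusted, against 16.1% of all regions. These shares of unadjusted calls lay near those of all regions. The median difference of the 45 regions was -0.02 for maxillary minus mandibular process, -0.04 for maxillary process minus nose and -0.02 for mandibular process minus nose, where the medians over all regions were 0.000922, -0.00959 and -0.00883.

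The first of the 2 lies in intron 3 of Erg, 5.61 kb downstream of the nearest start site (chr16:95518616-95519254). Its fold was 9.36 and 7.63 in the libraries labelled mandibular process, against 3.15 and 3.36 in those labelled nose, and 3.62 and 5.92 in maxillary process. The mandibular values lay above all others. The log2 difference, mandibular process minus nose, was 1.31 (SE 0.215, limma adjusted p = 0.0138). Against maxillary process the same region differed by -0.89 (maxillary minus mandibular, adjusted p = 0.0675).

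The other lies in intron 12 of Flt1, 80.6 kb downstream of the nearest start site (chr5:147645240-147645575). Its fold was 4.15 and 3.46 in mandibular process, against 7.85 and 6.97 in nose, and 6.25 and 6.43 in maxillary process. The mandibular values lay below all others. The log2 difference, mandibular process minus nose, was -0.95 (SE 0.200, limma adjusted p = 0.0293). Over all regions too, 0 of those tested passed in this contrast once any 1 library was left out, with 8347 to 13126 at an unadjusted p under 0.05. Neither call held when any 1 of the 6 libraries was left out, maxillary libraries included: adjusted p then ran between 0.0504 and 0.116 for Erg and between 0.0608 and 0.189 for Flt1, while the differences stayed between 1.18 and 1.44 and between -1.05 and -0.82.

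**Figure D5:**
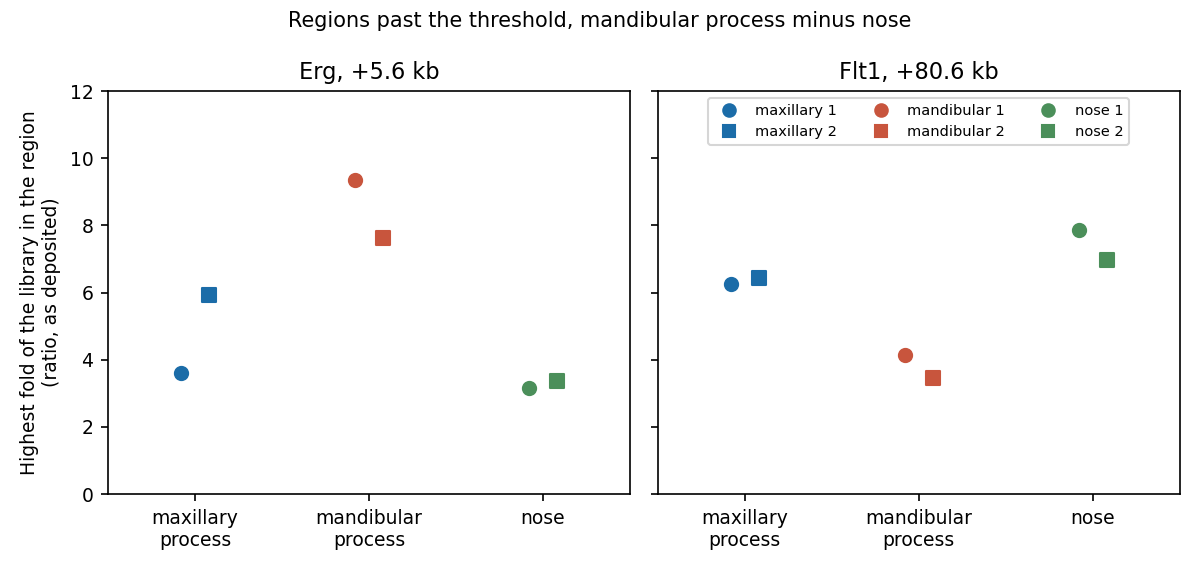
Highest fold as deposited, taken as a ratio over local background (vertical axis), of each library, by label (horizontal axis). The Erg region at +5.6 kb is on the left and the Flt1 region at +80.6 kb on the right. At Erg the mandibular libraries reach 9.36 and 7.63 against 3.15 and 3.36 in nose, and at Flt1 they stand at 4.15 and 3.46 against 7.85 and 6.97.

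The smallest adjusted p for maxillary process minus nose was 0.0687, for the Emcn region 52.4 kb upstream (chr3:137288361-137288939). Its fold was 4.64 and 4.81 in maxillary process, against 7.65 and 9.74 in nose, with 5.06 and 6.99 in mandibular process, a log2 difference of -0.90 (SE 0.224). The labels maxillary process and nose did not overlap, but the difference missed the threshold. The share of all regions in which these labels do not overlap is not given here.

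Windows of 201 bases around the strongest summits were searched on both strands for strings of vascular factors. GGAAG stood in 58.3% of the 338 windows, against 53.6% of all windows, and the longer CAGGAAG, which contains it, in 13.3% against 9.61%. AACAGGAA, a composite of forkhead and ETS strings that overlaps CAGGAAG, stood in 16 windows (4.73%), against 2.16%, and the SOX string AACAAT in 11.2% against 8.50%. The longer CCGGAAG stood in 2.66% against 1.90%, and the KLF string GGGTGTGG in 2.37% against 1.93%. The GATA string AGATAA stood in 7.99% against 8.30% and the forkhead string TGTTTAC in 2.07% against 2.97%. The AP-1 string TGANTCA stood in 5.33% against 6.60%, the RBPJ string TGGGAA in 20.1% against 19.4% and the E-box CANNTG in 69.8% against 69.4%. These shares are descriptions, and a match is not a binding site. The 16 windows with AACAGGAA were spread over 7 genes, 4 at Emcn and 3 at Tek, with 1 called in all libraries, the Emcn region at +23.2 kb shown above, and 8 in a single library. Among distal regions called in all libraries, AACAGGAA stood in 2.70% of the 37 at endothelial genes and in 2.22% of 35363 in all. In these sets GGAAG stood in 62.2% and 54.7%, CAGGAAG in 18.9% and 10.0%, CCGGAAG in 8.11% and 1.62%, and AACAAT in 16.2% and 7.82%. GGGTGTGG stood in 5.41% and 1.94%, TGGGAA in 21.6% and 19.9%, AGATAA in 2.70% and 7.05%, and TGTTTAC in 0% and 2.84%. TGANTCA stood in 2.70% and 6.73%, and CANNTG in 67.6% and 71.9%. Of the 37 regions, 3 held CCGGAAG and 1 held AGATAA. The Cdh5 promoter region also held AACAGGAA.

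Other vascular genes were grouped in lists by role. All 8 ligand promoters were called in every library, as were 7 of 9 other receptor promoters and 9 of 11 other transcription factor promoters. The same held for 10 of 14 junction and surface promoters and 2 of 3 lymphatic promoters. Over all 21827 protein-coding genes, the share called in every library was 61.3%. Plvap and Lyve1 had no promoter peak in any library. Of markers of other cells, all 7 pericyte and smooth muscle promoters, 8 of 8 facial mesenchyme, 6 of 7 epithelial and 6 of 6 neuronal promoters were called in every library, and 0 of 9 blood and macrophage promoters were, with 4 called in none. Over the genes of each list with a promoter called in every library, the median promoter percentile was 66.9 for the 7 endothelial genes. Over all 13386 such protein-coding genes it was 95.5, above the median of every list. It was 85.0 for vascular ligands, 80.2 for the other receptors and 86.5 for the other transcription factors. For junction and surface genes it was 91.0, and for the 2 lymphatic genes 91.4. The median was 88.1 for pericytes and smooth muscle, 87.2 for facial mesenchyme, 75.3 for epithelium and 93.0 for neurons.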

How the data were processed

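Bulk ATAC-seq of 6 libraries was analysed from 1 narrowPeak list per library. Per the submitters' notes, reads were processed with Bowtie2 and SAMtools on mm10. The peak caller is not given in the sources used here. The authors deposited for each summit a fold value, −log10 p and −log10 q values. The fold was taken here as a ratio over local background. A score deposited in the lists was not used. The lists held 219779 to 299731 lines, with −log10 q beginning at 1.3 in 4 lists, and higher in maxillary process replicate 2 (2.55) and mandibular process replicate 1 (1.62). Depth in reads is unknown, so an absent peak may lie below a list's limit.

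Start sites came from GENCODE M21 basic, sequence from RefSeq GRCm38. The 10 genes, the gene lists and the motifs were chosen with earlier results of these data known. Named regions were, for each gene, its promoter regions and its strongest distal region called in all libraries, every label-specific region and regions past the limma threshold. The Emcn region at +23.2 kb and the Tie1 region at +12.5 kb were chosen after their values were seen. Labels were compared with limma on regions called in all libraries and with two-sided exact permutation tests of rates, and the closing section gives the effect of the alternatives tried. limma 3.58.1 in R 4.3.3 and Python 3.11.15 were used.

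The limma step was tested on simulated data at log2 shifts of 0.5, 1 and 2. This set of sizes and the pass criteria were settled after earlier versions of the test had failed their own criteria, so the test is a check of direction and bias, not of power. The shift of 0.5 was never called, the shift of 1 in part only, and the shift of 2 was called but underestimated. Of the calls, the share that was false exceeded the nominal level.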

Additional observations from a re-analysis of the deposited data

How the results depend on the processing

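At −log10 q of at least 3 there were 185 regions of endothelial genes, 25 in all libraries, 72 in a single library, 6 specific to nose, 11 in maxillary not mandibular process, 11 the other way, 11 in nose not maxillary process, 13 in nose not mandibular process, and 4 promoters in all libraries. At −log10 q of at least 5 these were 112, 12, 52, 4, 6, 7, 6, 6 and 3, with 3 specific to maxillary process and 6 in maxillary process not nose, and the differences per 10000 regions reversed to 0.0832 (maxillary process), 0.351 (mandibular process) and -0.434 (nose). Requiring a peak to cover 50% or 200 bp left 26 in all libraries, 13 specific to mandibular process, and 0.0965 for maxillary process. Genes within 500 kb gave 69 in all libraries, 231 in a single library, 13 specific to maxillary process, 23 in maxillary process not nose and 0.545 for maxillary process, and genes within 50 kb gave 4 specific to mandibular process and 9 in maxillary process not nose. Lists of equal length gave 5 specific to mandibular process, 7 to nose and 10 in mandibular not maxillary process. Promoters called in all libraries numbered 5, against 7, with lists of equal length. They also numbered 5 with the cover rule and with promoters taken within 500 bp. Regions given to any gene numbered 245066 in the main setting. They numbered 148168 at −log10 q of at least 3 and 91086 at −log10 q of at least 5. Lists of equal length gave 177132 to any gene and 241 to endothelial genes. Within 50 kb these were 183436 and 247, and within 500 kb 356655 and 506. For the other counts in this paragraph and the next, shares over all regions or genes are not given. The causes were not tested.

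Leaving out each library in turn, label-specific counts ran between 8 and 30 (maxillary process), 11 and 34 (mandibular) and 15 and 49 (nose), since a label then rests on 1 library. Counts between labels ran between 18 and 52 for maxillary not mandibular process, 19 and 52 the other way, 14 and 46 for maxillary process not nose, 23 and 68 the other way, 21 and 53 for mandibular process not nose and 20 and 66 the other way. The differences per 10000 regions ran between -0.468 and 0.297 (maxillary), -1.05 and 0.235 (mandibular) and 0.185 and 0.727 (nose). The limma count for mandibular process minus nose was 0 without each library, against 2.

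With median centring, 1 region each passed for maxillary minus mandibular process and maxillary process minus nose and 3 for mandibular process minus nose, against 0, 0 and 2, and over all regions 1683, 1902 and 3298 passed in the 3 contrasts, against 686, 962 and 1733. With the replicate number as a block, 1127, 1365 and 2256 regions passed, and of endothelial regions 0, 0 and 2. Before normalization, deviations of same-numbered libraries correlated at 0.00295, 0.0724 and 0.0304. The main fit did not take the numbers as pairs. The block raised the calls over all regions in each contrast, so whether the numbers share an effect was not settled. Without reads, differences in depth could not be removed.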
